A study of Mus musculus with 2 samples.

Results

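The cells described are neutrophils of mouse tumours that carried much Ccl3 and Ccl4 RNA. They were chosen barcode by barcode from raw counts of unique molecular identifiers (UMIs, one per captured RNA molecule). A barcode needed 300 genes or more, 800 UMIs or more and no more than 10% of UMIs from mitochondrial genes, with at least 1 UMI in 3 or more of the 7 genes Csf3r, S100a8, S100a9, Cxcr2, Il1r2, Retnlg and G0s2. It could hold no UMI of Csf1r, Cd3e, C1qa, C1qb or C1qc, which mark macrophages and T cells. Ccl3 and Ccl4 together had to make up at least 1% of its UMIs. This left 1314 barcodes, called members here, of 16798 that passed the first filters and of 18136 in all. The 994 barcodes that met every condition but the last are called low neutrophils, and both sets together, 2308, are called gated neutrophils.

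Immune cells of mouse tumours were compared between a Control group and a group given Motolimod, a synthetic activator of Toll-like receptor 8 (TLR8), which senses RNA in endosomes. Per the labels, each group had 5 mice, whose tumours were dissociated with collagenase D plus DNase I before CD45+ cells were taken on magnetic beads for a 3′ droplet library. Each group has 1 library, the labels do not say whether its mice were pooled, and they name neither tumour model nor dose. No difference between the groups therefore has a replicate check, no p-value is given, and every 95% interval covers counting error only.

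CCL3 and CCL4 are small secreted chemokines that act through receptors on leukocytes, and CCL3 binds CCR1. They draw monocytes, natural killer cells, T cells and other leukocytes to inflamed tissue. Neutrophils, short-lived cells that store proteases and antimicrobial proteins in granules, transcribe both genes after they sense microbial products or cytokines, through factors that include NF-kB and AP-1. In mm10, Ccl3 lies on the minus strand at chr11:83647844-83649355 and Ccl4 on the plus strand at chr11:83662584-83664683, 13228 bases apart.

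The Control library held 116 members and the Motolimod library 1198. Members made up 31.4% of gated neutrophils in Control (exact 95% interval 26.7 to 36.3, 116 of 370) and 61.8% with motolimod (59.6 to 64.0, 1198 of 1938), a ratio of 1.97 (1.63 to 2.41). Of all passing barcodes they made up 1.55% and 12.9%, a ratio of 8.30 (6.85 to 10.1), since gated neutrophils were themselves 4.94% and 20.8% of passing barcodes. The median passing barcode held 14055 UMIs in Control and 3742.5 with motolimod. The part of that depth gap in the shares of passing barcodes was not tested, but with every barcode thinned to 800 UMIs before selection the ratio was 6.78. Without barcodes of over 8000 UMIs, which were 5273 of 7484 passing Control barcodes and 2449 of 9314 with motolimod, it was 3.34. The excluded genes removed 618 of 988 Control barcodes that had 3 neutrophil genes (62.6%) and 1391 of 3329 with motolimod (41.8%), of which 126 and 504 held a single UMI of those genes.

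Members of both libraries were small and close in depth, with medians of 1992 UMIs and 595.5 genes in Control and 2207 UMIs and 705 genes with motolimod. Low neutrophils had medians of 1820 and 1736.5 UMIs, but their sums held a few very large barcodes. The 16 low neutrophils of over 8000 UMIs in Control carried 44.3% of that group's UMIs, and the 11 with motolimod carried 12.1%. Among members, 1 and 7 barcodes passed that size and carried 4.63% and 2.34%. Values without these barcodes are therefore given beside the main comparisons with low neutrophils. The 2 libraries shared 113 barcode sequences, of which 14 were members in 1 library and 0 were members in both.

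The label was checked against markers that the rule did not use. All 17 further neutrophil genes, among them Mmp9, Trem1, Hdc and Slpi, had UMIs in members of both libraries. Their summed level was 15427 CPM (UMIs of a gene per 1000000 UMIs of the summed cells) in Control members and 18029 in Motolimod members, against 937 and 2927 over all passing barcodes. Slpi alone gave 6010 and 9744 CPM of it, and low neutrophils summed to 10471 and 15198 CPM. Ly6g, which encodes the usual surface marker of mouse neutrophils, was sparse, at 24.6 CPM in Control members and 38.8 with motolimod, with a UMI in 5.17% and 5.34% of them. Siglecf, reported on neutrophils of some mouse tumours and on eosinophils, stood at 10.6 and 3.38 CPM. Summed macrophage markers were at 278 and 368 CPM, against 4122 and 6638 in passing barcodes, and dendritic cell markers at 303 and 411 CPM against 14077 and 11430. The rule had already removed barcodes with a UMI of its excluded macrophage and T cell genes. Low values of further macrophage and T cell genes are therefore no independent check. Monocyte markers separated less, at 313 and 387 CPM against 634.5 and 1147, with a UMI in 17.2% and 30.1% of members. Of these, Ly6c2 stood at 190 and 363 CPM in members. Among 8 further T cell genes, 1 had a UMI in Control members, where the 8 summed to 3.52 CPM. In Motolimod members all 8 had UMIs and summed to 22.0 CPM, and 28 of these UMIs were of Cd8b1 in 1 cell. In all, 1 Control member held 2 or more of 6 basophil genes.

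By construction the sum of Ccl3 and Ccl4 was at least 1% of every member's UMIs, and these values chose the cells. A member could lack 1 of the 2 transcripts. Ccl3 and Ccl4 made up a median of 2.42% of a member's UMIs in Control, with a highest value of 8.61%, and a median of 2.88% with motolimod, with a highest value of 19.96%. Above 8% lay 1 Control member and 93 Motolimod members. Within 0.25 percentage points under the threshold were 23 Control barcodes (median 0.829%) and 122 Motolimod barcodes (median 0.881%), and as close above it were 13 (median 1.10%) and 93 (median 1.13%). No gap in the distribution separates members from low neutrophils. A further 103 Control and 166 Motolimod gated barcodes held no UMI of either gene.

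**Figure D1:**
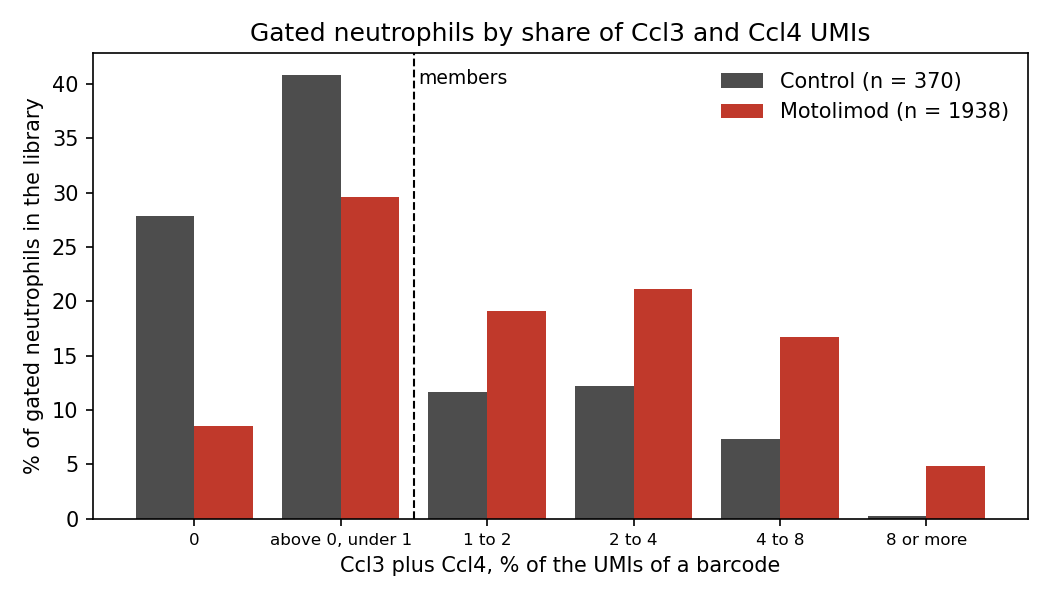
Percent of gated neutrophils (y axis) by the share of a barcode's UMIs that are Ccl3 plus Ccl4 (x axis, in 6 classes), in grey for Control (370 barcodes) and red for Motolimod (1938). Members lie right of the dashed line at 1%, and barcodes with no UMI of either gene made up 27.8% in Control and 8.57% with motolimod.

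In summed counts, Ccl3 stood at 10536 CPM in Control members and 15475 in Motolimod members, against 807 and 2078 in low neutrophils. Ccl4 stood at 18834 and 22592 CPM in members and at 976 and 1489 in low neutrophils. Most members carried both transcripts, 91.4% in Control and 95.0% with motolimod. Ccl4 made up a median of 71.5% of the sum in a Control member and 59.9% in a Motolimod member. As 1.55% of passing Control barcodes and 0.224% of their UMIs, members held 14.7% of the library's Ccl3 UMIs and 6.57% of its Ccl4 UMIs. With motolimod they were 12.9% of barcodes and 4.83% of UMIs, and held 45.9% of Ccl3 and 37.7% of Ccl4 UMIs. Barcodes with epithelial markers, which should lack both genes, give a level for comparison. Of 623 Control and 62 Motolimod barcodes with epithelial markers, 7.06% and 27.4% had a UMI of either gene at median depths of 41104 and 51727 UMIs. None (0) reached 1%, and the highest was 0.123% and 0.167%, but these barcodes are far deeper than members, so the levels are not at matched depth and the part of free RNA in members was not tested.

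The neutrophil genes of the rule differed in level among members and are given as a description. S100a9, a calcium-binding alarmin subunit, stood at 47566 CPM in Control members and 41970 with motolimod, and its partner S100a8 at 18355 and 22113. Csf3r, the receptor for granulocyte colony-stimulating factor, stood at 489 and 376 CPM in members and at 524 and 788 in low neutrophils, and its ratio was 0.545 and 0.426 without the large barcodes. Il1r2, a decoy receptor for interleukin 1, stood at 1928 and 663 CPM in members. Cxcr2, the receptor for Cxcl1, Cxcl2 and Cxcl3, stood at 338 and 208 CPM. Exactly 3 neutrophil genes, the minimum, were present in 13.8% of Control members and 31.1% of Motolimod members.

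Within each library, members were next set against low neutrophils. Since the rule divides these cells by Ccl3 and Ccl4 level, this contrast is a description and carries no test. A gene was measured with a mean level of at least 50 CPM and 30 UMIs over both sums, and was called at a ratio of 1.5 or more either way. In Control, 411 of 2050 measured genes were called higher in members (20%) and 830 lower (40.5%). With motolimod, 114 of 2153 were higher (5.29%) and 557 lower (25.9%). Without barcodes of over 8000 UMIs, 202 were higher (11.1%) and 531 lower (29.1%) in Control, and 75 higher (3.59%) and 402 lower (19.2%) with motolimod. Of the Control calls, 160 of the 411 higher and 321 of the 830 lower genes kept their call without these barcodes, and of the Motolimod calls 68 of 114 and 330 of 557. Median-of-ratios scaling moved all Motolimod ratios up by 0.41 on the log2 scale, which turned the share of higher among called genes from 16.99% to 69.9%, so directions of weak changes there depend on the scaling. Of genes measured in both libraries without the large barcodes, 37 were higher in both, which is 21.1% of the Control calls and 68.5% of the Motolimod calls.

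The 12 genes ranked highest in members of both libraries included the chemokine genes Cxcl2 and Cxcl3 and the interleukin 1 family genes Il1a, Il1rn and Il1f9. Cxcl2, a chemokine that attracts neutrophils through CXCR2, was the most abundant of the 12, at 53787 CPM in Control members against 14499 in low neutrophils, and at 62530 against 24432 with motolimod. Its ratio was 3.71 in Control and 2.56 with motolimod, and 2.28 and 2.33 without the large barcodes. Its neighbour and relative Cxcl3 stood at 11134 against 1988 CPM in Control and 10781 against 5066 with motolimod, with ratios of 5.60 and 2.13. Il1rn, the interleukin 1 receptor antagonist, stood at 2674 against 785 CPM in Control and 4567 against 1972 with motolimod. Il1a, an interleukin 1 cytokine that also acts as an alarm signal, stood at 313 against 76.4 CPM and 771 against 212. Il1f9, another member of the interleukin 1 family, stood at 651 against 202 CPM and 970 against 499. Without the large barcodes the ratios of Cxcl3, Il1rn, Il1a and Il1f9 stayed at or above 1.5 in both libraries.

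Tnf, the tumour necrosis factor gene, stood at 250 CPM in Control members against 96.1 in low neutrophils and at 1209 against 353 with motolimod. Its ratio without the large barcodes was 1.48 in Control, just under the call, and 3.09 with motolimod. Traf1, an adaptor of tumour necrosis factor receptors, stood at 264 against 124 CPM in Control and 350 against 178 with motolimod. F3, which encodes tissue factor and starts blood clotting, stood at 352 against 98.5 CPM and 201 against 86.2. Hgsnat, a lysosomal enzyme of heparan sulfate breakdown, stood at 253 against 48.6 CPM and 255 against 96.0. Slc31a2, a copper transporter relative, stood at 303 against 83.4 CPM and 493 against 263. Rybp, a component of Polycomb complexes, stood at 398 against 115 CPM and 287 against 151. Without the large barcodes the ratios of Traf1, F3, Hgsnat, Slc31a2 and Rybp lay between 1.85 and 3.32 in Control and between 1.71 and 2.49 with motolimod. Gdf15, a stress-induced secreted factor, was higher too, but 76.7% of its UMIs in Control members came from 1 cell. Cd274, which encodes the checkpoint ligand PD-L1, stood at 1714 against 510 CPM in Control and 1616 against 969 with motolimod, and remained called in both libraries without the large barcodes.

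**Figure D2:**
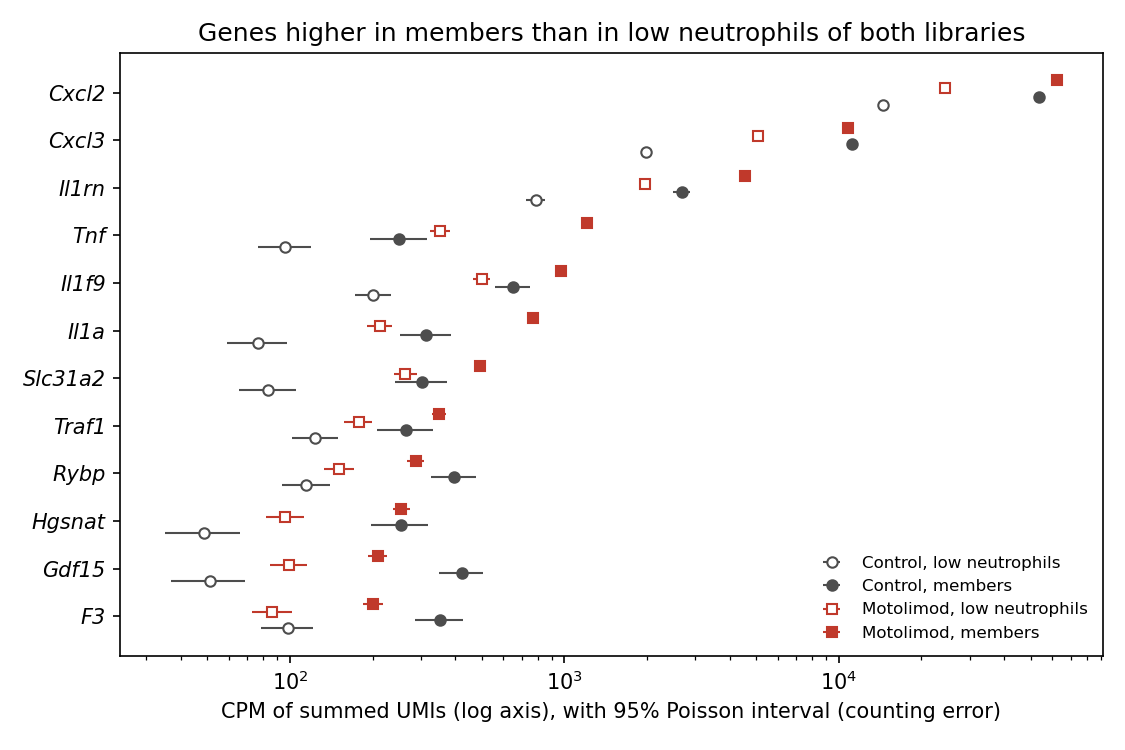
CPM of summed UMIs (x axis, log scale, bars are 95% Poisson intervals for counting error) of the 12 genes ranked highest in members over low neutrophils in both libraries (y axis). Circles are Control and squares Motolimod, filled for members and open for low neutrophils, and each filled point lies right of the open point of its library, as for Cxcl2 at 53787 against 14499 CPM in Control.

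Stretches upstream of Ccl3 and of genes that moved with it show which letters lie before their starts. They are the 250 bases before the start in the RefSeq promoter table (GRCm38.p6), 5′ to 3′ on the gene's strand, which held 11 of 14 genes looked up, namely Ccl3, Ccl4 and the 12 genes just plotted. The NF-kB consensus and the AP-1 motif TGANTCA were searched on both strands and are in capitals, and none of the 11 windows held both. The first occurs in 5.00% and the second in 6.75% of 32841 windows of this length. Cxcl2 at chr5:90903649-90903898 (plus strand) and Cxcl3 at chr5:90785851-90786100 (plus strand) are shown for the first motif, Il1a at chr2:129309973-129310222 (minus strand) for the second, and Ccl3 at chr11:83649379-83649628 (minus strand) as the gene that chose the cells.
Cxcl2: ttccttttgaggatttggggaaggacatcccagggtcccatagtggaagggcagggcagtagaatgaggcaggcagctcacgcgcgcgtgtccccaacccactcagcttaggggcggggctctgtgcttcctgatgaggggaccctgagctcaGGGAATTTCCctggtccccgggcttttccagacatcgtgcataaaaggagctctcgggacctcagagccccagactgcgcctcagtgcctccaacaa
Cxcl3: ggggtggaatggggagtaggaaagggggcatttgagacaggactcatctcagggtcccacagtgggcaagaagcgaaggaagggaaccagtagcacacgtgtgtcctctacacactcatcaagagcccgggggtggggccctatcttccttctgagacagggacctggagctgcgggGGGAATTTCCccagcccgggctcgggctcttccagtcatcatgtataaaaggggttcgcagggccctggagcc
Il1a: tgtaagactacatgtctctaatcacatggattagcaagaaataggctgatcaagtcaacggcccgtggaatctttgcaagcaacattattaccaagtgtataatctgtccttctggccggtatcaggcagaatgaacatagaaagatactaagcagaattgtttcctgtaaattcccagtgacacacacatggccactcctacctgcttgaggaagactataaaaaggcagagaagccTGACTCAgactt
Ccl3: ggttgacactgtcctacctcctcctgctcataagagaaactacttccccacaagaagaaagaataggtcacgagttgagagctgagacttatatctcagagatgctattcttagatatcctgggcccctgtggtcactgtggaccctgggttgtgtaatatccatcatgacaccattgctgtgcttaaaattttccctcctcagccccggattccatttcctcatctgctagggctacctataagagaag
The NF-kB consensus was in the windows of Cxcl2, from 97 bases before its start, and Cxcl3, from 73 bases before, and in no other of the 11. The AP-1 letters were in the windows of Il1a, Il1rn and F3, of which Il1rn has 3 windows and the first is counted. Neither motif was in the window of Ccl3 or Tnf, which says only that these letters are absent there.

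Gene lists were counted beside the shares over all measured genes. Of 14 measured cytokines and mediators in Control, 11 were higher in members and 0 lower, beside 20% and 40.5% of all measured genes, with a median log2 ratio of 1.02 against -0.26 over all measured genes. With motolimod, 7 of 14 were higher and 0 lower, beside 5.29% and 25.9%, with a median of 0.61 against -0.26. Without the large barcodes 10 of 15 were higher in Control and 1 lower, and 6 of 14 were higher with motolimod and 0 lower. Of the other chemokines, a list that holds Cxcl2 and Cxcl3, 5 of 11 were higher and 3 lower in Control, and 3 of 10 were higher and 4 lower with motolimod, the lower ones being Cxcl1, Ccl2, Ccl7 and Cxcl10. Leaving out the large barcodes gave 5 of 9 higher and 1 lower in Control, and 2 of 11 higher and 4 lower with motolimod. The 4 lower ones were then Ccl7, Cxcl9, Cxcl10 and Pf4, and Cxcl1 and Ccl2 were no longer called. Among NF-kB subunits and feedback genes, 6 of 13 were higher in Control and 5 of 16 with motolimod, and Bcl3 was lower in both. Without the large barcodes 3 of 14 were higher and 2 lower in Control, with a median of -0.016 in place of 0.56, and 3 of 16 were higher and 2 lower with motolimod. Nfkbia, the inhibitor that NF-kB itself induces, stood at 6953 against 2714 CPM in Control and 6065 against 3813 with motolimod, but its ratio with motolimod was 1.48 without the large barcodes. Nfkbib, a second inhibitor, stayed above 1.5 in both.

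Of 15 granule and maturation genes measured with motolimod, 8 were lower in members and 1, Lcn2, was higher, beside 25.9% lower and 5.29% higher over all measured genes. In Control 4 of 13 were lower and 4 higher, beside 40.5% and 20%, and without the large barcodes 8 of 13 were lower and 0 higher, against 6 of 13 lower and 1 higher with motolimod, beside 29.1% and 19.2% lower over all measured genes. Hp, which encodes haptoglobin, stood at 278 CPM in Control members against 622 in low neutrophils and at 102 against 351 with motolimod. Pglyrp1, an antibacterial granule protein, stood at 222 against 405 CPM and 73.6 against 290. Mmp9, a gelatinase of neutrophil granules, stood at 123 against 208 CPM and 258 against 457. All 3 stayed called lower in both libraries without the large barcodes. Camp and Ngp, made by immature neutrophils, are 2 of the 8 lower with motolimod, and this rests on 1 low barcode, which held 91.6% and 95.1% of their UMIs in low neutrophils.

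Cytosolic ribosomal protein genes were lower in members, 78 of 80 measured in Control and 71 of 80 with motolimod, beside 40.5% and 25.9% of all measured genes, with median log2 ratios of -2.20 and -0.84. With the large barcodes left out these counts were 32 of 79 and 18 of 80, beside 29.1% and 19.2%. The share then lay above that over all genes in Control and near it with motolimod. The medians were then -0.52 and -0.45, against -0.24 and -0.25 over all measured genes. The keratin gene Krt8 stood at 14.1 CPM in Control members and 390 in low neutrophils, and without the large barcodes its ratio was 0.888 on too few UMIs for a call. Cd74, the invariant chain of MHC class II, stood at 98.5 against 1110 CPM in Control and 197 against 1024 with motolimod and stayed lower without them. The part of other cell types in these differences was not tested. Summed dendritic cell markers were at 303 and 411 CPM in members and 2453 and 2038 CPM in low neutrophils.

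Members of the 2 libraries were then compared with each other. Of 1816 measured genes, 431 were higher with motolimod (23.7%) and 280 lower (15.4%), with a median log2 ratio of 0.09. The large barcodes mattered little here, since without them 405 of the 431 and 255 of the 280 kept their call. All of these genes differ between 2 libraries, and library and treatment cannot be told apart, so levels in low neutrophils of the same libraries are given beside many of the differences.

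Lcn2, an iron-sequestering antibacterial protein of neutrophil granules, stood at 475 CPM in Control members and 3306 in Motolimod members, a ratio of 6.96 (5.87 to 8.31). In low neutrophils it stood at 536 and 1501 CPM. Creg1, a secreted lysosomal glycoprotein, stood at 49.3 and 562 CPM in members, a ratio of 11.4 (6.79 to 20.9), and at 57.9 and 471 CPM in low neutrophils. Esd, an esterase, stood at 144 and 809 CPM, a ratio of 5.61 (4.12 to 7.83), against 361 and 715 in low neutrophils. Gsap, the gamma-secretase activating protein, stood at 21.1 and 162 CPM, Kmt5a, a histone H4 methyltransferase, at 7.04 and 117, and Serf1 at 14.1 and 133. In Control these last 3 rest on few UMIs, 2 for Kmt5a. In low neutrophils Gsap stood at 41.7 and 105 CPM, Kmt5a at 47.5 and 105, and Serf1 at 12.7 and 125. All 6 of these genes were called higher with motolimod in low neutrophils too.

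Among cytokines and mediators 7 of 17 measured genes were higher with motolimod and 3 lower, beside 23.7% and 15.4% of all measured genes, with a median log2 ratio of 0.32. Tnf stood at 250 and 1209 CPM, a ratio of 4.84 (3.83 to 6.21), and Il1a at 313 and 771 CPM, a ratio of 2.46 (1.99 to 3.08). Csf3, which encodes granulocyte colony-stimulating factor, stood at 3.52 CPM in Control members, which is 1 UMI, and at 116 CPM with motolimod, with a ratio of 32.9 (5.87 to 1304), against 16.2 and 13.4 CPM in low neutrophils. Spp1, which encodes osteopontin, stood at 894 and 3464 CPM, Csf1, the macrophage growth factor, at 391 and 912, and Thbs1, an adhesive matrix glycoprotein, at 771 and 1512. Il1rn stood at 2674 and 4567 CPM. Osm, an interleukin 6 family cytokine, went from 1256 to 484 CPM, Vegfa, the vascular growth factor, from 405 to 226, and Il23a from 91.5 to 56.4. Il1b, the main secreted interleukin 1, stood at 13601 and 9628 CPM and was not called. In low neutrophils 8 of 12 cytokines and mediators were higher with motolimod and 0 lower, beside 21.4% and 22.1% of genes measured there. Without the large barcodes 6 of 12 were higher there (Tnf, Il1a, Il1rn, Csf1, Thbs1 and Spp1) and 1 lower (Osm), beside 22.2% and 10.1%. Their median log2 ratio was 0.88 with the large barcodes and 0.43 without them.

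Of 9 other chemokines measured, 2 were higher, Cxcl10 and Pf4, and 2 lower, Ccl6 and Ccl7, beside 23.7% and 15.4% of all measured genes. Cxcl2 at 53787 and 62530 CPM and Cxcl3 at 11134 and 10781 CPM lay within 1.5-fold. Ccl6 stood at 7893 and 3063 CPM, a ratio of 0.388 (0.370 to 0.407). In low neutrophils it stood at 2242 and 2085 CPM, but without the large barcodes it was called lower with motolimod there too. Ccl7 was called lower, but 82.1% of its Control UMIs came from 1 cell, and Cxcl10 was called higher with 71.8% of its Control UMIs in 1 cell. Ccr1, a receptor of CCL3, stood at 1281 and 963 CPM, within 1.5-fold.

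Of 11 MHC class I genes measured, which serve antigen presentation, 8 were higher and 0 lower, beside 23.7% and 15.4% of all measured genes, with a median log2 ratio of 0.78. In low neutrophils 6 of 11 were higher with motolimod and 0 lower, beside 21.4% and 22.1% of all genes measured there, and 8 of 11 without the large barcodes (22.2% and 10.1%). H2-K1, a class I heavy chain, stood at 1010 and 1734 CPM, and H2-Q7 at 91.5 and 378 CPM, although reads of such close relatives can be assigned to the wrong member. In low neutrophils H2-K1 stood at 1508 and 2159 CPM. Of 17 oxidase and antioxidant genes 8 were higher in members and 0 lower, with a median of 0.53, and in low neutrophils 10 of 18 were higher and 1 lower, or 3 of 17 and 0 without the large barcodes. Sod2, mitochondrial superoxide dismutase, stood at 296 and 1014 CPM, Txn1, thioredoxin, at 904 and 1936, Hmox1, haem oxygenase, at 714 and 1418, and Gclm, a subunit of the glutathione synthesis enzyme, at 24.6 and 133. In low neutrophils Gclm stood at 114 and 120 CPM, but without the large barcodes it was called higher with motolimod there too. Slc7a11, the cystine transporter that feeds glutathione synthesis, stood at 468 and 1569 CPM in members and at 193 and 1015 in low neutrophils. Genes of other myeloid cells also stood higher in Motolimod members, with Pf4 at 24.6 and 142 CPM, H2-Aa at 28.2 and 72.6, Cd74 at 98.5 and 197 and Ly6c2 at 190 and 363. The ratio without the large barcodes was 1.29 for H2-Aa and for Cd74, under the call, and the part of other cells in these differences was not tested.

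Of 18 innate sensor genes 3 were higher and 1 lower, and of 15 NF-kB genes 3 were higher and 1 lower, shares no larger than the 23.7% and 15.4% over all measured genes. Tnip1, which restrains NF-kB signalling, stood at 31.7 and 185 CPM, and Irak3, a brake on Toll-like receptor signalling, at 28.2 and 127 CPM. In low neutrophils Tnip1 stood at 33.6 and 106 CPM and Irak3 at 18.5 and 74.6. Tlr2 stood at 106 and 211 CPM, and Icam1, an adhesion molecule, at 91.5 and 293. Tlr8, the mouse gene for TLR8, had 0 UMIs in 116 Control members and 4 in 1198 Motolimod members, and Tlr7 had 4 and 23 UMIs. A gene with such counts cannot be compared at this depth, and whether motolimod acts on the mouse receptor was not tested.

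Several groups were lower with motolimod. All 11 measured mitochondrially encoded genes fell, with a median log2 ratio of -1.31, and the median share of mitochondrial UMIs was 0.366% in Control members and 0.0906% in Motolimod members. Low neutrophils had 0.329% and 0.119%, and the part of RNA quality in this was not tested. Of 25 immediate early genes 10 were lower and 1 higher, beside 15.4% and 23.7% of all measured genes, with Fos at 2361 and 830 CPM, Zfp36, which promotes decay of cytokine mRNA, at 3716 and 1383, and Junb at 3857 and 2299. Of 26 glycolysis and hypoxia genes 9 were lower and 0 higher, beside the same shares, with Ldha at 2787 and 1401 CPM, Higd1a at 721 and 309, and Slc2a1, the glucose transporter, at 503 and 241. In low neutrophils 1 of 26 immediate early genes was lower and 3 higher, beside 22.1% and 21.4% of genes measured there. Without the large barcodes 7 of 25, Fos among them, were lower there and 1 higher, beside 10.1% and 22.2%. Of 28 glycolysis and hypoxia genes 5 were lower there and 2 higher. Without the large barcodes 4 were lower, among them Ldha, Higd1a and Slc2a1, and 1 higher.

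Single genes lower with motolimod included Plaur, the urokinase receptor, at 3304 and 1113 CPM, a ratio of 0.337 (0.313 to 0.363). In low neutrophils it stood at 1583 and 859 CPM. Ifitm1, an interferon-inducible membrane protein, stood at 4923 and 1393 CPM in members and 5227 and 2883 in low neutrophils. Wfdc17, a small secreted protein, stood at 6865 and 2369 CPM in members and 4002 and 2353 in low neutrophils. Nfil3, a transcription factor, stood at 820 and 247 CPM, Fabp5, a fatty acid-binding protein, at 774 and 204, Tarm1, an activating receptor of myeloid cells, at 394 and 101, Igfbp6 at 496 and 69.3, and Tnfaip6, a hyaluronan-binding protein, at 123 and 24.7. Of 33 interferon response genes 4 were higher and 2 lower, beside 23.7% and 15.4% of all measured genes, with a median log2 ratio of 0.18. In low neutrophils 26 of 33 were higher with motolimod and 0 lower, beside 21.4% and 22.1% of all genes measured there. The median of the list was 0.92. Without the large barcodes 12 of 35 were higher there and 0 lower, beside 22.2% and 10.1%, with a median of 0.52. The difference between members and low neutrophils was not tested.

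**Figure D3:**
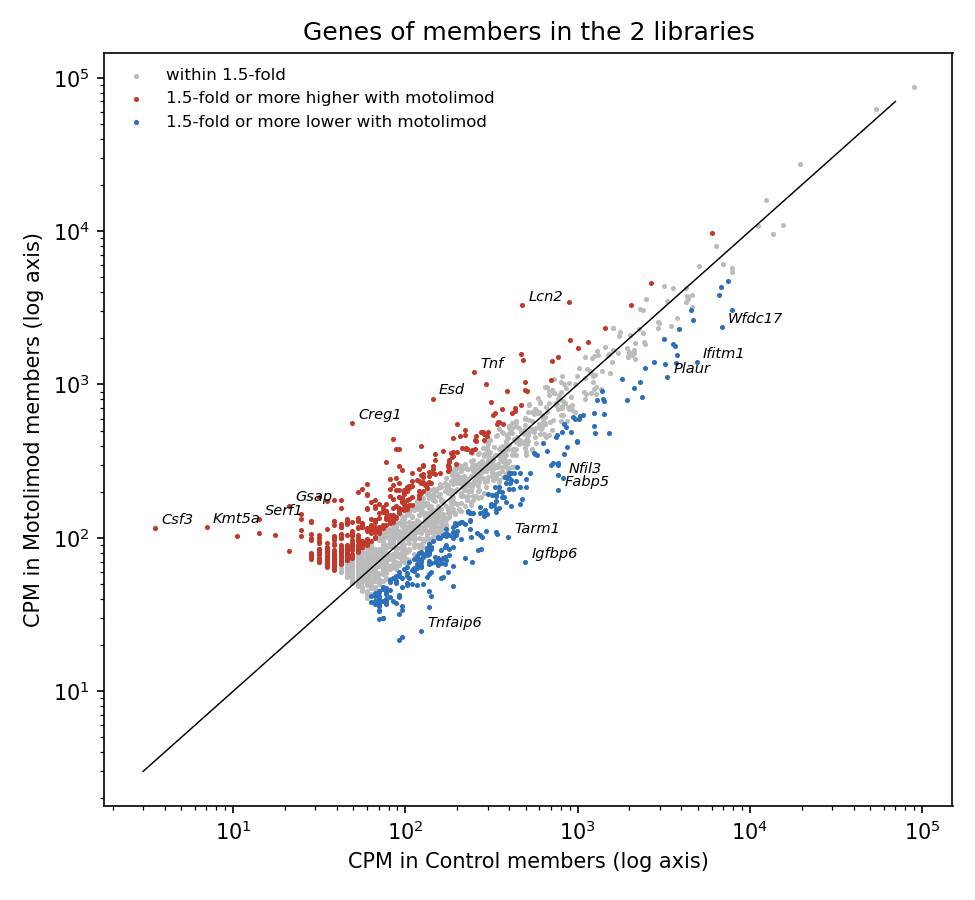
CPM in Control members (x axis) and in Motolimod members (y axis), both on log scales, for measured genes with UMIs in both. Grey points lie within 1.5-fold, red points are higher and blue points lower with motolimod, the line is equality, and the genes ranked highest and lowest by ratio are named, such as Lcn2 at 475 and 3306 CPM.

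**Figure D4:**
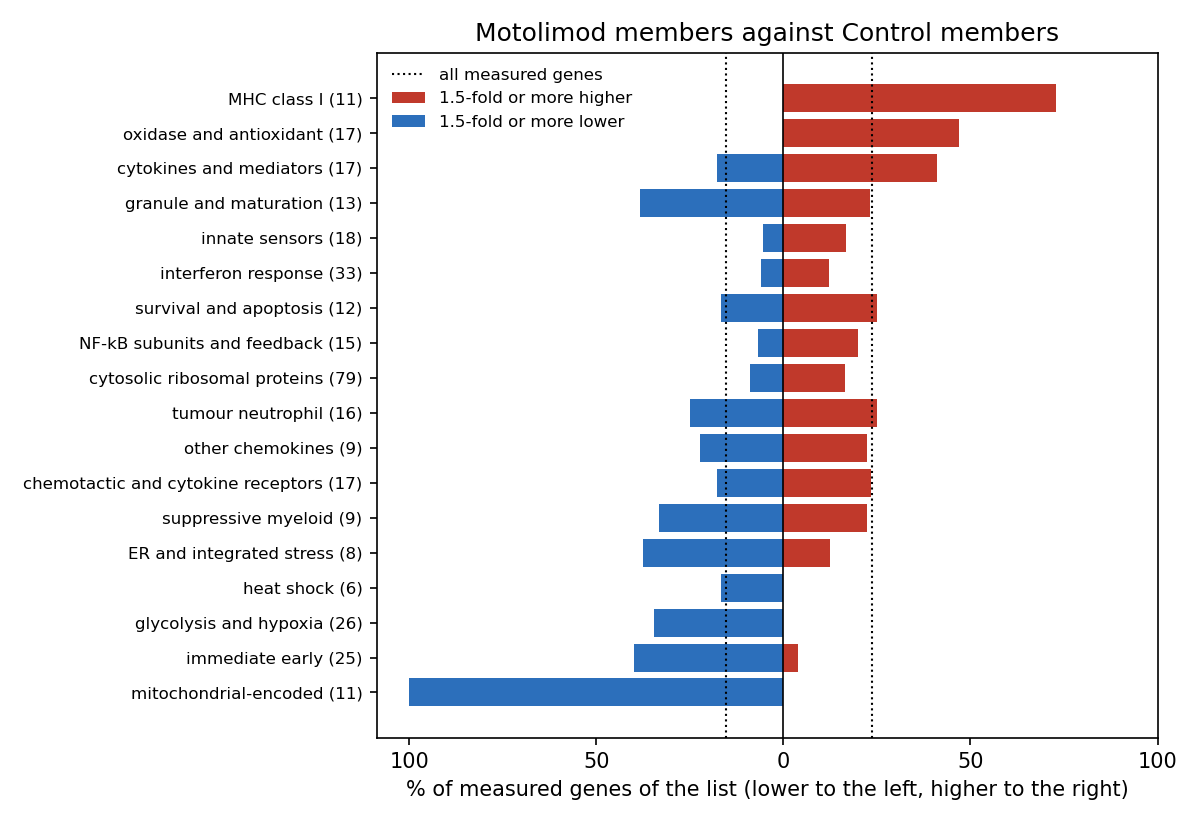
Percent of measured genes of each list (number in brackets, y axis) that were 1.5-fold or more higher (red, to the right) or lower (blue, to the left) in Motolimod than in Control members (x axis). Dotted lines mark the 23.7% higher and 15.4% lower over all measured genes, and the mitochondrially encoded genes are lower in all 11 cases.

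Members also differed among themselves. They were divided at 2% and 4% Ccl3 plus Ccl4, with 43, 45 and 28 Control cells and 371, 410 and 417 Motolimod cells from lowest to highest share, and levels were taken without Ccl3 and Ccl4 in the total. Of 708 measured genes in Control, 97 were higher at 4% or more than at 1 to 2% (13.7%) and 160 lower (22.6%). With motolimod, 43 of 2001 were higher (2.15%) and 409 lower (20.4%). Cxcl2 climbed with the share, from 49040 through 51810 to 74671 CPM in Control and from 40558 through 60235 to 92422 with motolimod. Spp1 went from 157 through 943 to 2475 CPM in Control and from 2056 through 3547 to 5070 with motolimod. Tnf stood at 173, 176 and 567 CPM in Control and at 756, 1021 and 1964 with motolimod.

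Il1a stood at 363, 301 and 275 CPM in Control, where members held 89 of its UMIs in all, and at 400, 789 and 1182 with motolimod. Csf3 with motolimod stood at 47.0, 132 and 175 CPM. Cxcl1, a further neutrophil attractant, stood at 25.2, 90.3 and 106 CPM with motolimod. Some macrophage and MHC class II genes ran the other way with motolimod. Pf4 stood at 354, 68.7 and 44.0 CPM, Cd74 at 446, 107 and 89.99, H2-Aa at 173, 34.3 and 30.3, and Apoe at 199, 63.8 and 37.7 CPM. Much of this can rest on few cells. In Motolimod members a single cell held 100 of 421 Pf4 UMIs. For Cd74 it was 220 of 584, for H2-Aa 105 of 215 and for Apoe 102 of 275. The part of such cells in the gradient was not tested.

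**Figure D5:**
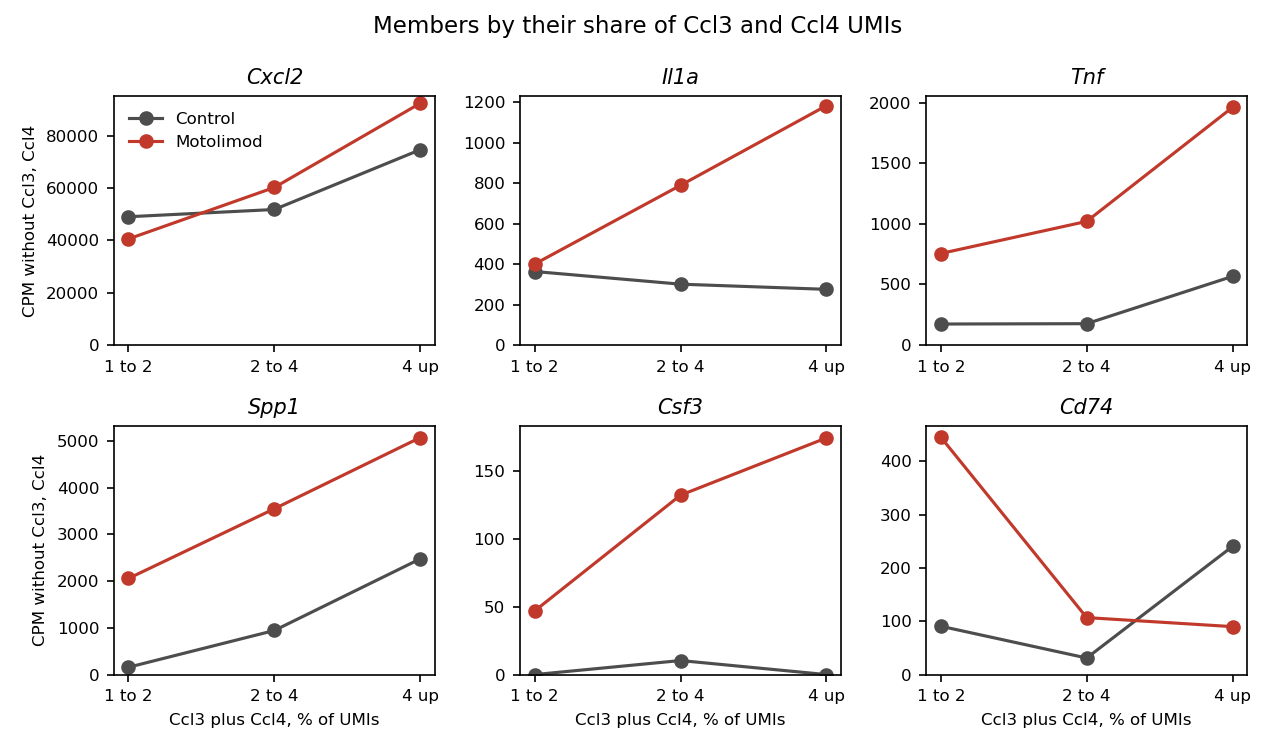
CPM without Ccl3 and Ccl4 in the total (y axis) of 6 genes in members with 1 to 2%, 2 to 4% and 4% or more Ccl3 plus Ccl4 UMIs (x axis), grey for Control and red for Motolimod, without error bars. Cxcl2, Tnf and Spp1 are highest at 4% or more in both libraries, while Cd74 falls from 446 to 89.99 CPM with motolimod and does not in Control. Of 584 Cd74 UMIs in Motolimod members, 220 came from 1 cell.

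Over single cells thinned to 800 UMIs, the gene whose level was most like the Ccl3 plus Ccl4 sum was Spp1 in Control, with a Spearman correlation of 0.352 over 116 cells, followed by Cxcl2 at 0.336. With motolimod it was Cxcl2, at 0.397 over 1198 cells, followed by Ier3, an early response gene, at 0.208. Il1a, Il1rn and Acod1 came next with motolimod, at 0.189, 0.189 and 0.164. Cells of 1 library share their source, and counts this sparse make weak values no finding.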

How the data were processed

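Per the file headers, each deposited matrix holds raw UMI counts per gene and barcode (32285 genes), made by the authors with no normalization. The Cell Ranger version is 7.1.0 per the file headers but 5.0.1 per the submitters' notes, with the mm10 build. The setting for intron reads is not given in the sources used here. Depth was 127609378 UMIs in 8099 Control barcodes and 62057685 in 10037 Motolimod barcodes, of which 7484 and 9314 passed the filters.

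Scripts used scipy 1.17.1, numpy 2.4.6, scanpy 1.11.5, pandas 2.3.3 and matplotlib 3.10.9 under Python 3.11.15. UMIs were summed over the cells of a set and given as CPM with exact Poisson intervals, shares with Clopper-Pearson intervals, and ratios with conditional binomial intervals. Genes of the rule were described and not counted. The comparison was tested on simulated counts. No doublets were removed, since Scrublet called 0 in each library with its own threshold, and that call was not used. Removal of its highest scores, 0.8% per 1000 barcodes, was an alternative, as were other thresholds, gates, filters, scalings and the 2-fold call. Leaving out barcodes of over 8000 UMIs or with 2 or more basophil genes was added after the data were seen. The NF-kB consensus replaced a looser form of the motif after its matches were seen.

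The members and gene lists were chosen with earlier results of these data known. Named are the 8 highest and 8 lowest ratios of each comparison by the interval bound nearest 1, the 12 highest and 12 lowest in members over low neutrophils of both libraries, up to 4 genes of each list either way, the genes of the rule and all markers. Genes with symbols starting mt-, Rp or Gm, or ending in Rik, were not ranked. Tlr7, Tlr8, Siglecf and genes given only for their level in 1 cell were named after their values were seen. Some genes that these rules name are not reported here.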

Additional observations from a re-analysis of the deposited data

Results flagged for a closer look

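For each of the genes below, the ratio of members to low neutrophils passed 1.5-fold in opposite directions in the 2 libraries, and the difference between the libraries was not tested. As the Motolimod minus the Control log2 ratio, it was -1.85 for Fabp5, -1.42 for the glucose transporter gene Slc2a3, -1.27 for Fos, -3.10 for Ccl7 and 1.87 for Plk2, a kinase. Fos stood at 2361 against 1501 CPM in Control and at 830 against 1276 with motolimod. Without barcodes of over 8000 UMIs the Control ratio was 0.991 for Slc2a3 and 1.20 for Fos, under the call in each case. For Ccl7, 82.1% of the UMIs in Control members came from 1 cell. No explanation was tested.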

How the results depend on the processing

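The ratio of member shares was above 1 under every alternative run. Among gated neutrophils it was 1.62 at a Ccl3 plus Ccl4 threshold of 0.5%. Among passing barcodes it was 6.81 at that threshold, 10.7 with the stricter filter (500 genes, 1500 UMIs, 5% mitochondrial), 6.63 with at least 4 neutrophil genes, 6.78 after thinning to 800 UMIs and 3.34 without barcodes of over 8000 UMIs. For Motolimod against Control members, higher and lower calls were 997 and 504 at a mean CPM of 20, 2361 and 6661 with no minimum, and 184 and 105 at 2-fold. For members over low neutrophils in Control, higher calls were 263 with at least 4 neutrophil genes, 186 after thinning, 263 with the mean over cells, 5011 with no minimum, 178 at 2-fold and 202 without the large barcodes, and lower calls were 468 after thinning, 1870 at a mean CPM of 20, 4146 with no minimum and 531 without the large barcodes. With motolimod, higher calls were 183 at the 0.5% threshold, 46 at 2%, 450 with median-of-ratios scaling, 172 at a mean CPM of 20, 1770 with no minimum, 17 at 2-fold and 75 without the large barcodes, and lower calls were 194 with that scaling, 1250 at a mean CPM of 20, 7035 with no minimum and 181 at 2-fold.

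Of 1224 log2 ratios of named genes under alternatives, 934 lay inside the interval of the reported value and 278 outside it. A further 12 had the other sign, which was counted only where the reported ratio was 1.5-fold or more either way. Sign turns of genes within 1.5-fold are among the 934 and 278. Without the large barcodes, the sign turned for Camp (0.70) and Ngp (2.24) with motolimod, for Ccl7 between members (1.15) and in Control (-1.22), and for Slc2a3 (-0.013) in Control. At the 2% threshold it turned for Ccl7 between members (0.44) and in Control (-1.25) and for Gdf15 in Control (-3.13), which the stricter filter also turned (-2.15). Thinning turned Il23a between members (0.48) and, in Control, Slc2a3 (-0.121), as did the mean over cells for Slc2a3 (-0.119). The cause was not tested. No paired analysis was possible because each group has 1 library, and for the same reason no replicate could be left out. The 116 Control members, with 284175 UMIs in all, limit the precision of every comparison with Control.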

Other observations

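Receptors and survival genes of the members were not described above. Fpr1 and Fpr2, receptors for formylated bacterial peptides, stood at 345 and 109 CPM in Control members and at 570 and 267 CPM in Motolimod members, ratios of 1.65 (1.35 to 2.05) and 2.44 (1.71 to 3.62). Cflar, an inhibitor of death receptor signalling, stood at 123 and 398 CPM, and Mcl1, a survival factor of the Bcl2 family, at 4575 and 3048 CPM. Pdcd1lg2, which encodes the checkpoint ligand PD-L2, stood at 151 CPM in Control members against 16.2 in low neutrophils and at 129 against 91.1 CPM with motolimod, and its ratios without barcodes of over 8000 UMIs were 5.46 and 1.34. Arg1, arginase, was sparse in members at 21.1 and 17.9 CPM, and in Control all of its UMIs came from 1 cell.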
